A study of Papio anubis with 25 samples.

Results

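CD74, CIITA, CTSS, IFI30 and LGMN are 5 genes of the pathway that loads peptides onto major histocompatibility complex (MHC) class II molecules, and their transcript levels were followed across 5 tissues of the olive baboon, Papio anubis. They were taken by gene symbol from a table of 21287 genes, and each of the 5 symbols had a row. They were chosen by an earlier look at these data, which had shown CD74 to be far higher in the salivary glands than in the pancreas. Gland and pancreas levels are therefore given as a description, with no test between them. CD74 is also given without a test against liver, since its gland and pancreas values took part in the choice. For the same reason nothing is read from its p values between glands.

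The series holds 25 messenger RNA libraries, 1 from each of 5 tissues of 5 baboons, of which 4 were female and 1, baboon 5, was male. The tissues are the parotid, submandibular and sublingual glands, each from the left side, the pancreas and the liver. No treatment is named for any animal. RNA was taken from sections of flash-frozen tissue, so a library can hold RNA of every cell type in its section. Ages and breeding history are not given in the sources used here. The study asked how the salivary glands and digestive organs of the same animal differ, and each animal is called here by its number, baboon 1 to baboon 5. Values particular to baboon 5 cannot be told apart from a difference between the sexes.

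An MHC class II molecule is an alpha and beta chain pair that shows peptides from the endosome to helper T cells. Its genes are switched on by CIITA, a coactivator that binds to factors already sitting on their promoters and that is induced by interferon gamma in many cell types. New chains assemble around CD74, the invariant chain, which fills the peptide groove and directs the complex to endosomes. There CTSS (cathepsin S) makes the late cuts that leave a fragment of CD74 in the groove, LGMN (legumain, an asparaginyl endopeptidase) cuts antigens and other proteases, and IFI30 (also called GILT) reduces disulphide bonds so that proteins can unfold. Dendritic cells, B cells and macrophages carry the whole pathway, while lysosomal genes such as LGMN are also used by many other cells.

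Levels are in TPM, the unit in which a transcript's share of its library is given after correction for transcript length, so levels can be compared between genes. The deposited TPM values keep no read depth, so no counting error can be attached to them. Where a few secretory transcripts fill a library, every other gene's share is lowered. A second scale was therefore computed, in which TPM values were divided by a TMM factor (a trimmed mean of M-values). These factors ran from 0.339 to 2.63 in the parotid, from 0.443 to 2.63 in the submandibular gland and from 0.829 to 1.89 in the sublingual gland, against 0.611 to 0.845 in the pancreas and 1.08 to 1.28 in the liver. The pancreas and liver labels were checked against defining genes: 7 acinar genes summed to at least 66936 TPM in every pancreas and 5 hepatocyte genes to at least 42950 TPM in every liver. In libraries of the other tissues these lists reached at most 1927 and 1087 TPM. Salivary genes, 7 in the table, summed to 3087 to 5894 TPM in pancreas and 976 to 4480 TPM in liver. The source of these transcripts outside their own tissue was not tested. Among the glands several libraries stood apart. The parotid of baboon 2 held 21974 TPM of adipocyte genes, the submandibular glands of baboons 2 and 5 held 2814 and 6992 TPM of them, and the sublingual gland of baboon 2 held 97316 TPM of skeletal muscle genes. The sublingual glands of baboons 1 and 4 held 113727 and 49420 TPM of stratified epithelium genes. Every other gland library held at most 748 TPM of those. The parotid of baboon 5 held 1102 TPM of B cell genes and 796 TPM of T cell genes, where the other parotids held at most 9.03 and 61.4 TPM.

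CIITA, the regulator of the pathway, was the scarcest of the 5 genes. In parotid it was 0.821, 4.05, 4.63, 0.544 and 15.9 TPM in baboons 1 to 5 (mean 5.19 ± 6.27, SD, n = 5). In the submandibular gland it was 0.292, 1.84, 0.948, 0.646 and 1.06 TPM (0.958 ± 0.577), and in the sublingual gland 0.777, 1.12, 0.252, 1.21 and 0.756 TPM (0.823 ± 0.377). The 3 highest CIITA values of the series were all parotid, and baboon 5 alone carried the highest by a wide margin. In pancreas the values were 0.135, 0.422, 0.241, 0.258 and 0.257 TPM (0.263 ± 0.103), and in liver 0.316, 0.357, 0.303, 0.369 and 0.523 TPM (0.374 ± 0.0881). Of the 15 gland libraries, 13 lay above the highest pancreas and 13 above the highest liver. The mean passed 1 TPM only in parotid, so it was the parotid that brought CIITA into the tests, which covered the 14991 genes whose mean reached 1 TPM or more in some tissue.

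CD74, the invariant chain, was the most abundant of the 5 genes in every gland library. In parotid it reached 490.1, 973, 637, 256 and 2978 TPM in baboons 1 to 5 (mean 1066.9 ± 1099.8, SD, n = 5), in the submandibular gland 142, 1051, 203, 347 and 399 TPM (428 ± 363), and in the sublingual gland 233, 388, 128, 107 and 245 TPM (220.2 ± 112). In pancreas it was 58.0, 82.7, 60.4, 62.9 and 70.5 TPM (66.9 ± 10) and in liver 89.5, 122, 123, 80.3 and 112 TPM (105 ± 19.4). Gland values thus spread widely between animals, while pancreas and liver were tight. At its highest CD74 ranked 30 among all genes of a parotid library, whereas in liver it ranked between 644 and 1123.

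All 15 gland libraries had more CD74 than the highest pancreas, and 14 had more than the highest liver, the exception being the sublingual gland of baboon 4 at 107 TPM. Within animals, CD74 in parotid was 11.3 times that in pancreas (geometric mean of 5 ratios, from 4.07 to 42.2). The submandibular gland had 5.04 times the pancreatic level (2.44 to 12.7) and the sublingual gland 2.98 times (1.70 to 4.70). These ratios are the contrast behind the choice of genes and carry no test. In that contrast 6.44% of all genes were called at the rule used below, and nothing about these genes is read from it. On the TMM scale 13 of 15 gland libraries stayed above the highest pancreas and 13 above the highest liver.

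**Figure D1:**
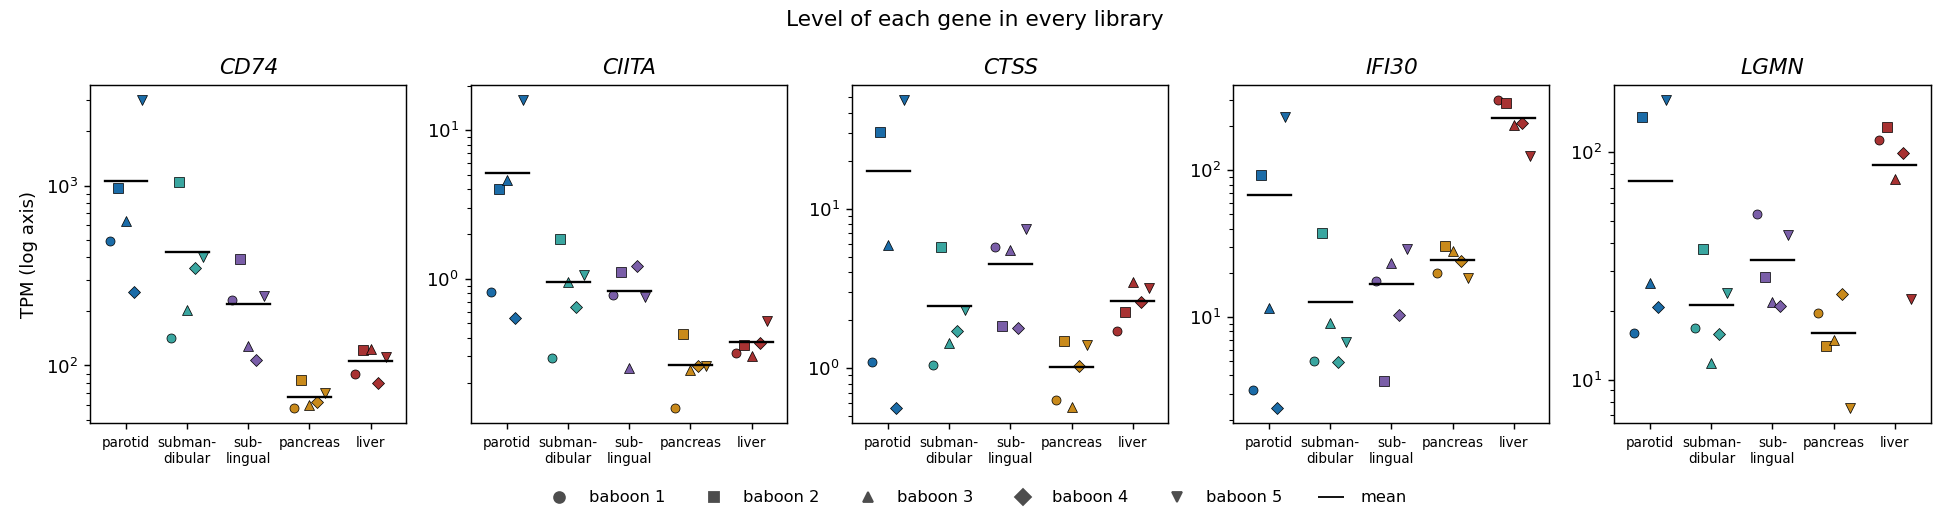
Level of each of the 5 genes in every library, in TPM on a log10 axis, by tissue, with 1 point per baboon and the tissue mean as a line. CD74 and CIITA are highest in parotid and lowest in pancreas, IFI30 is highest in liver, and the parotid of baboon 5 tops all 5 genes among the glands.

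The spread of CD74 among parotids narrowed on the TMM scale, from a coefficient of variation of 103% to 38.5%. Scaled CD74 was 963, 394, 581, 755 and 1133 in the parotids of baboons 1 to 5, and 277, 399, 344, 782 and 351 in the submandibular glands. It was 123, 469, 95.4, 92.9 and 159.6 in the sublingual glands. Baboon 5 kept the highest parotid value, and baboon 2 turned from the second highest parotid to the lowest. Pancreas (90.6 ± 17.9) and liver (89.2 ± 20.6) had nearly the same scaled mean, where their TPM means were 66.9 and 105.

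**Figure D2:**
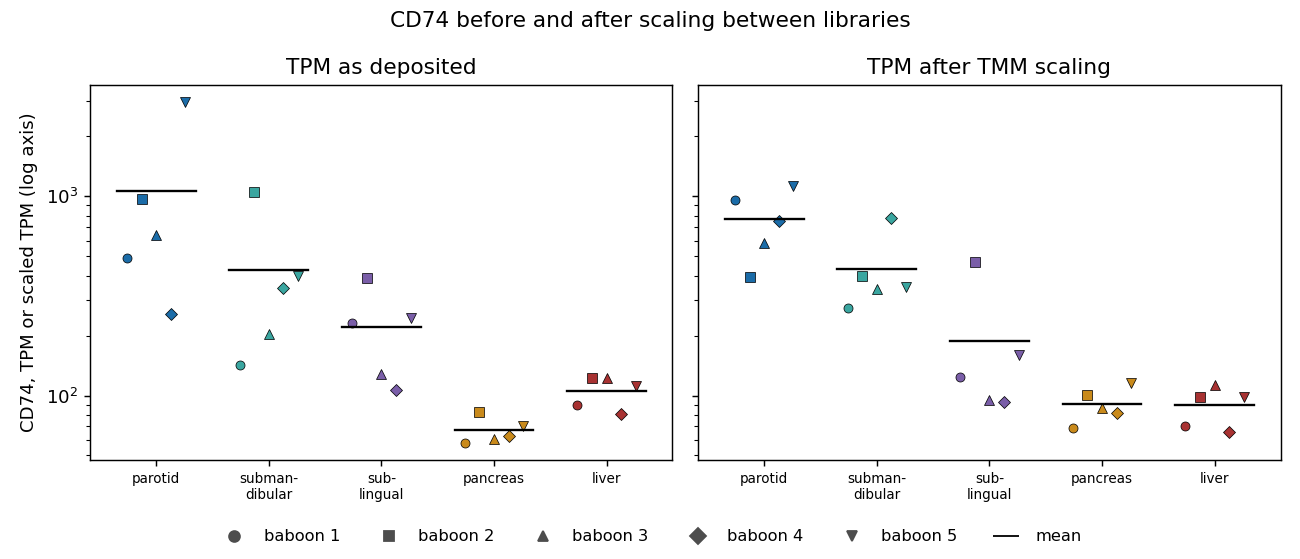
CD74 in each library as deposited (TPM) and after division by the library's TMM factor, both on log10 axes, with points for baboons 1 to 5 in each tissue and the mean as a line. The parotid values draw together after scaling (394 to 1133), while the sublingual values spread further (92.9 to 469, from 107 to 388). After scaling, 13 of 15 gland libraries remain above every pancreas and liver library.

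IFI30, the thiol reductase, had a different order of tissues from CD74. Liver held 300.1, 289.8, 205, 210.3 and 126 TPM in baboons 1 to 5 (mean 226 ± 71.1, SD, n = 5) and pancreas 19.9, 30.7, 28.4, 24.2 and 18.5 TPM (24.3 ± 5.25). Parotid held 3.19, 92.6, 11.6, 2.40 and 230.3 TPM (68.0 ± 98.3), the submandibular gland 5.00, 37.2, 9.17, 4.92 and 6.80 TPM (12.6 ± 13.9), and the sublingual gland 17.6, 3.68, 23.3, 10.3 and 29.2 TPM (16.8 ± 10.1). The parotid of baboon 5 was the only gland library of 15 within the range of liver, and on the TMM scale none was. Against pancreas, 10 of 15 gland libraries lay below its lowest value and 3 above its highest, and on the TMM scale 13 lay below and 1 above. The libraries above it were the parotids of baboons 2 and 5 and the submandibular gland of baboon 2, the same libraries that were lowest in salivary genes among the parotid and submandibular samples (2082, 4644 and 2262 TPM). Each of those sums lay within the range of the salivary sums in pancreas (3087 to 5894 TPM) or liver (976 to 4480 TPM).

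CTSS, the protease that trims CD74, was low outside the parotid. It was 1.09, 30.3, 5.93, 0.562 and 47.9 TPM in the parotids (mean 17.2 ± 21.1, SD, n = 5), 1.04, 5.73, 1.43, 1.70 and 2.30 TPM in the submandibular glands (2.44 ± 1.90) and 5.79, 1.84, 5.50, 1.78 and 7.46 TPM in the sublingual glands (4.48 ± 2.54). Pancreas held 0.631, 1.47, 0.568, 1.03 and 1.39 TPM (1.02 ± 0.419) and liver 1.71, 2.26, 3.49, 2.59 and 3.20 TPM (2.65 ± 0.716). Parotid held both the lowest CTSS value of all libraries, in baboon 4, and the highest, in baboon 5. All 5 sublingual glands lay above the highest pancreas as deposited. On the TMM scale those of baboons 2 and 4 (2.22 and 1.55) did not (highest pancreas 2.28), and 8 rather than 11 of the 15 gland libraries lay above it.

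LGMN, the endopeptidase, was highest on average in liver. Liver held 114, 129, 76.0, 99.3 and 22.7 TPM (mean 88.1 ± 41.4, SD, n = 5) and pancreas 19.6, 14, 14.9, 23.9 and 7.52 TPM (16.0 ± 6.19), with baboon 5 lowest in both. Parotid held 16.0, 143, 26.6, 20.9 and 169 TPM (75.2 ± 74.6), the submandibular gland 16.9, 37.5, 11.8, 15.9 and 24.0 TPM (21.2 ± 10.1), and the sublingual gland 53.5, 28.2, 22.0, 21.1 and 43.1 TPM (33.6 ± 14.2). The parotids of baboons 2 and 5 exceeded every liver in LGMN as deposited. No gland library did on the TMM scale.

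The order of tissue means therefore differed between the genes. CD74 and CIITA ran from parotid through submandibular gland, sublingual gland and liver down to pancreas. CTSS ran from parotid through sublingual gland, liver and submandibular gland to pancreas. IFI30 ran from liver through parotid, pancreas and sublingual gland to submandibular gland, and LGMN from liver through parotid, sublingual and submandibular glands to pancreas. For every gene each tissue's range overlapped that of the next tissue in the order, so neighbouring places are not separated by the spread between animals. Liver exceeded pancreas in CD74 in all 5 baboons, although the ranges overlapped.

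Ratios of genes within a library do not depend on how that library is scaled. The ratio of IFI30 to CD74 was 0.00651, 0.0952, 0.0182, 0.00937 and 0.0773 in the parotids, 0.0352, 0.0354, 0.0451, 0.0142 and 0.0170 in the submandibular glands, and 0.0758, 0.00947, 0.182, 0.0966 and 0.119 in the sublingual glands. It was 0.343, 0.371, 0.470, 0.385 and 0.262 in pancreas and 3.35, 2.37, 1.67, 2.62 and 1.13 in liver. Every gland library lay below every pancreas library, and every pancreas library below every liver library. CD74 was chosen for its difference between glands and pancreas, so the separation of those tissues in this ratio is in part built in. It is given as a description and carries no test. In liver the reductase transcript outnumbered that of CD74, and in each of the other 20 libraries CD74 was the more abundant. Across the 25 libraries this ratio spanned 515-fold, more than CD74 (51.4-fold) or IFI30 (125-fold) alone.

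The ratios of the other genes to CD74 spanned less than that of IFI30. The ratio of CIITA to CD74 spanned 6.75-fold over the 25 libraries, with tissue medians between 0.00206 and 0.00417. The ratio of CTSS to CD74 spanned 19.5-fold and that of LGMN to CD74 38.9-fold. For LGMN this was more than the gene alone (22.5-fold), whereas CTSS alone spanned 85.2-fold and CIITA alone 118-fold. LGMN to CD74 had a median of 0.0568 in parotid, 0.0583 in the submandibular gland, 0.176 in the sublingual gland, 0.247 in pancreas and 1.05 in liver. Among the endosomal enzymes, the ratio of CTSS to IFI30 was between 0.154 and 0.512 in the 15 gland libraries, between 0.0200 and 0.0755 in pancreas and between 0.00569 and 0.0254 in liver. Here too the glands did not overlap with pancreas or liver, with the protease relatively more abundant in the glands.

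**Figure D3:**
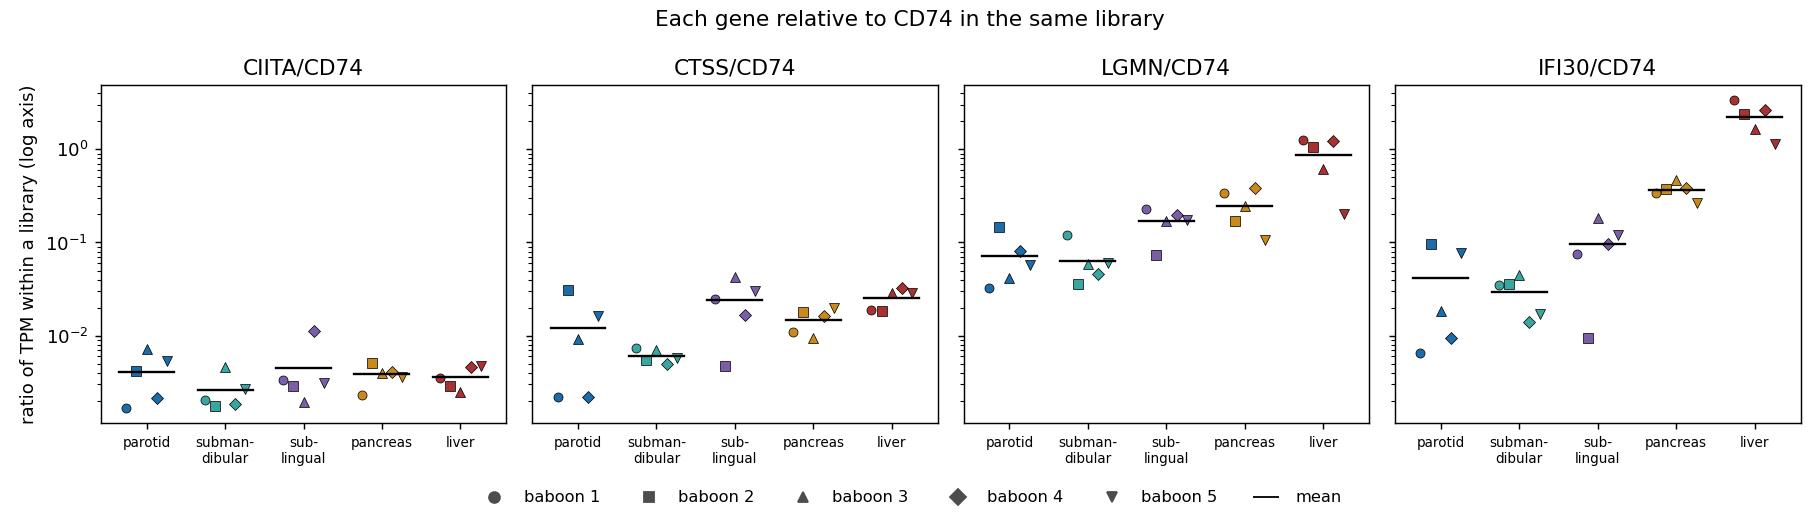
Ratio of CIITA, CTSS, IFI30 and LGMN to CD74 within each library, on log10 axes, by tissue, with 1 point per baboon and the mean as a line. The ratio of IFI30 to CD74 rises from glands (at most 0.182) through pancreas (0.262 to 0.470) to liver (1.13 to 3.35) with no overlap, while the ranges of the ratio of CIITA to CD74 overlap in all 5 tissues. CD74 was chosen for its difference between glands and pancreas, so that part of the separation is in part built in.

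Glands and liver were compared with limma on log2(TPM + 1), with tissue and animal as terms over all 25 libraries. A gene was called when its Benjamini-Hochberg adjusted p over 14991 genes was under 0.05 and its log2 fold change at least 1 in size. Of all genes, 5.0% were called higher and 13.2% lower in the mean of the 3 glands than in liver. CD74 differed by 1.81 (log2, SE 0.39) and was higher in the glands of 5 of 5 baboons. IFI30 fell by 3.89 (SE 0.66, adjusted p = 8.71e-05) and was lower in the glands of 5 of 5. The IFI30 call was kept without the 4 gland libraries that earlier results of these data had put in doubt (parotid of baboons 2 and 5, submandibular of baboon 5, sublingual of baboon 2), where the CD74 difference was 1.63 and the IFI30 difference −4.23.

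CTSS and LGMN did not pass the test between glands and liver, and CIITA, which entered the fit through the parotid alone, is given without one. CIITA differed by 0.82 (SE 0.32, higher in 5 of 5 baboons), CTSS by 0.48 (SE 0.49, adjusted p = 0.544, higher in 4 of 5) and LGMN by −1.28 (SE 0.49, adjusted p = 0.0667, higher in 1 of 5). A difference computed after adding 1 TPM understates the change of CIITA, most of whose values are below 1 TPM. With 0.1 TPM added, it was 1.48. LGMN passed the test with either rescaling of the libraries (log2 difference −1.09 with TMM), and without baboon 5 (−1.92, adjusted p = 0.00324). In bulk tissue, fewer cells of a type and less RNA per cell cannot be told apart in any of these differences.

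Pancreas and liver were compared in the same fit, in which 2.86% of all genes were called higher and 14.6% lower in pancreas. IFI30 fell by 3.13 in pancreas (SE 0.81, adjusted p = 0.00709), and LGMN fell by 2.27 (SE 0.60, adjusted p = 0.00798), each in 5 of 5 baboons. The LGMN call was lost when baboon 3 was left out (−2.27, adjusted p = 0.0540). CIITA differed by −0.12 (SE 0.39, adjusted p = 0.897) and CTSS by −0.86 (SE 0.59, adjusted p = 0.373), neither past the test, and CD74, untested, by −0.64 (SE 0.47). For CIITA the test could not give a call. Its values in these tissues lay between 0.135 and 0.523 TPM, too low for a log2 difference of 1 after adding 1 TPM. Within animals its pancreas level was 0.673 times that in liver (geometric mean), and liver was higher in 4 of 5 baboons. The median of all genes was itself −0.44 in this comparison and −0.03 after TMM scaling. On that scale the CD74 difference was 0.03 and the CIITA difference 0.04, so the sign of neither was stable, while IFI30 and LGMN remained lower in pancreas.

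**Figure D4:**
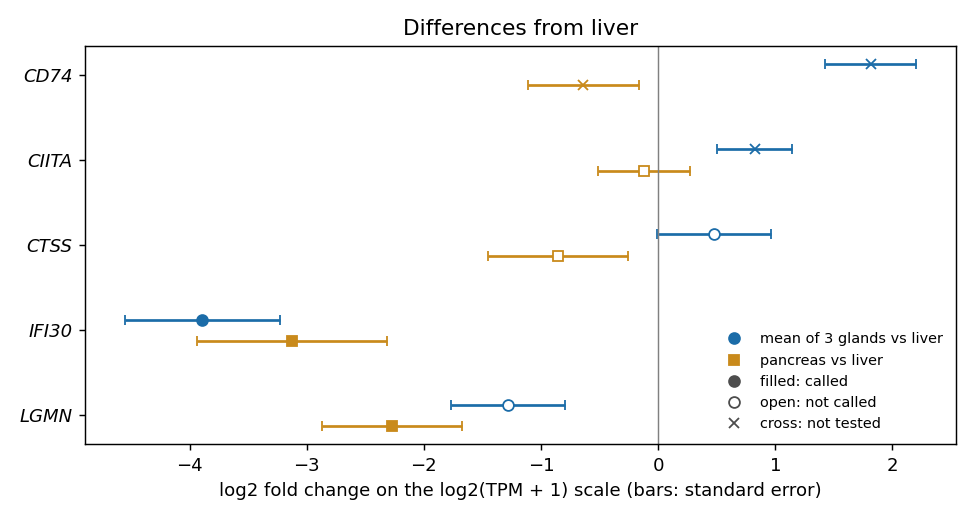
Log2 difference in TPM + 1 of the 5 genes in the mean of 3 glands against liver and in pancreas against liver, with bars of 1 SE from limma on each side. Filled points were called, open points were not and crosses were not tested: IFI30 (−3.89) is called in the glands, and IFI30 (−3.13) and LGMN (−2.27) in pancreas.

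The glands were then set against each other. Between parotid and submandibular gland no gene of the whole table was called (0.0% of 14991 by limma, 254 at an unadjusted p under 0.05). CD74 differed by 1.16 there (SE 0.47) and was higher in parotid in 3 of 5 baboons. Between parotid and sublingual gland 0.113% of genes were called. CD74 differed by 1.91 (SE 0.47, adjusted p = 0.111) and was higher in parotid in 5 of 5 baboons, between 2.11 and 12.2 times. After TMM scaling the CD74 difference was 2.23 and passed the test (adjusted p = 0.0244). Without the 4 doubted libraries CD74 also passed it (1.48, adjusted p = 0.0442), and IFI30, at 0.48 with all libraries (adjusted p = 0.906), turned to −1.83 (adjusted p = 0.0279). That fit called far more of all genes than the 0.113% above, with its count given in the closing sections. Counts over the alternatives ran from 0 to 3160 of 14991 genes. The calls without those libraries are therefore not read as particular to CD74 or IFI30. The gland values of CD74 took part in the choice of genes, so nothing is read from its passes between glands. Between submandibular and sublingual gland 0.0667% of genes were called, and the log2 differences of the 5 genes lay between −0.66 (CTSS) and 0.75 (CD74), none past the test.

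The class II chains themselves could be followed only in part. Of 16 chain symbols sought, 2 were found, through RefSeq synonyms: LOC101018895 carries the synonym Paan-DPA1 (the DP alpha chain) and LOC101000981 the synonym Paan-DPB1 (the DP beta chain). LOC101018895 was 29.2, 206, 153, 15.9 and 305 TPM in the parotids of baboons 1 to 5, between 7.69 and 193 TPM in the submandibular glands and between 24.9 and 60.4 TPM in the sublingual glands. Pancreas held 6.16 to 15.6 TPM and liver 6.60 to 19.4 TPM. It rose in glands over liver by 2.01 (log2, SE 0.48, limma adjusted p = 0.00351, higher in 5 of 5 baboons), beside the 1.81 of CD74. Its ratio to CD74 spanned only 4.43-fold over the 25 libraries, from 0.0543 to 0.240. LOC101000981 differed by 1.45 between glands and liver (SE 0.64, adjusted p = 0.124). It did not pass the test on deposited values but passed it after either rescaling (adjusted p = 0.0126 and 0.0119). Chains of this family are near-identical copies in places, so reads may have been split between them.

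Other factors of class II transcription and turnover gave no call between glands and liver, where 5.0% of all genes were called higher and 13.2% lower. The 9 tested genes are the promoter-binding factors RFX5, RFXAP, RFXANK, NFYA, NFYB, NFYC and CREB1 and the ubiquitin ligases MARCHF1 and MARCHF8. At an unadjusted p under 0.05 by limma, 1 was higher and 1 lower in the glands, where the list's median was 0.22 and that of all genes −0.003. RFX5 was 8.44 ± 9.09 TPM in parotid, 3.72 ± 2.97 in the submandibular gland, 4.73 ± 1.98 in the sublingual gland, 1.41 ± 0.306 in pancreas and 2.10 ± 0.243 in liver (SD, n = 5 each), with a gland to liver difference of 0.77 (adjusted p = 0.13). In pancreas, 1 of the 9 was called lower than in liver, where 14.6% of all genes were. This gene, NFYA, fell by 1.89 (limma adjusted p = 0.0154). Its call was lost when baboon 1, 3 or 5 was left out (adjusted p = 0.0604, 0.0811 and 0.05003).

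Some of the other endolysosomal proteases and related lysosomal genes were lower outside the liver. Of 18 tested, 7 were called lower in glands than in liver, where 13.2% of all genes were, and 6 lower in pancreas than in liver, where 14.6% were. By limma 0 were called higher in either comparison, and 0 were at an unadjusted p under 0.05. CTSO, cathepsin O, was called higher in pancreas after TMM scaling (1.36, adjusted p = 0.00644). The list's medians were −0.88 and −1.66, against −0.003 and −0.44 for all genes. CTSH (cathepsin H, an aminopeptidase) was 168 ± 60.0 TPM in liver, 14.5 ± 2.96 in pancreas, 67.2 ± 91.9 in parotid, 30.3 ± 50.2 in the submandibular gland and 15.5 ± 8.32 in the sublingual gland. It fell by 3.33 in glands (adjusted p = 9.63e-04) and by 3.37 in pancreas (adjusted p = 0.00603), and kept both calls under every alternative. CTSZ fell by 2.17 and 3.11, CTSL by 1.99 and 2.41, and CTSA by 1.62 and 2.21. CTSB, cathepsin B, fell by 2.66 in pancreas (adjusted p = 0.00353) and differed by −1.01 in glands (adjusted p = 0.190). The count of 7 rested on few animals. It was 2 without baboon 1, 1 without baboon 3 and 1 without baboon 4. CTSL and CTSA lost their calls in all 3 of these fits (adjusted p up to 0.180), and CTSZ without baboon 3 or 4 (adjusted p = 0.0604 and 0.0603). The count was 10 without the 4 doubted libraries, 11 without the 3 parotid and submandibular libraries lowest in salivary genes, and 4 with no filter on low values or with only the compared tissues in the fit. The pancreas call of CTSL was lost in 5 of 14 alternatives (adjusted p up to 0.162) and that of CTSA without baboon 3 (adjusted p = 0.0575). The count of 6 in pancreas was 3 without baboon 3, 9 and 11 without those sets of libraries, and 14 with only the compared tissues. Totals of all genes called, in both directions together, moved as well. Over the alternatives they ran from 1865 to 3847 between glands and liver. Between pancreas and liver they ran from 1731 to 4308, the highest with only the compared tissues. The 13.2% and 14.6% belong to the main fit, so nothing particular to these genes is read from the other counts.

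Calls in neighbouring pathways stand beside the shares of all genes. In glands against liver, 5.0% of all genes were called higher and 13.2% lower. In pancreas against liver these shares were 2.86% and 14.6%. The lists are small, so nothing particular to these pathways is read from the counts. Of 14 class I processing genes 0 were called between glands and liver by limma (0 higher and 3 lower at an unadjusted p under 0.05), while on the TMM scale B2M, the light chain of class I, was called higher (1.07, adjusted p = 0.0284) and the chaperones CALR and PDIA3 lower (−1.12 and −1.07). In the glands PSME2 (−1.15, adjusted p = 0.0905) was called in 3 of 14 alternatives. Of the 14 genes 1 fell in pancreas, PSME2, a proteasome activator subunit (−1.73, adjusted p = 0.0377). Its call was lost without the animal term (adjusted p = 0.0597) and when baboon 1, 3, 4 or 5 was left out (adjusted p up to 0.155). Of 14 genes of the interferon gamma response, 1 was called in each comparison, the chemokine CXCL10, which fell by 4.68 in glands (adjusted p = 1.58e-06) and by 5.34 in pancreas (adjusted p = 5.19e-06). Its levels were 194.8 ± 92.3 TPM in liver, 29.6 ± 44.2 in parotid and under 6 TPM on average in the other tissues. IRF1, an interferon-induced transcription factor, differed by −0.14 between glands and liver (adjusted p = 0.908). In the 3 comparisons between glands, 0 genes of the class II, class I, interferon, protease and macrophage lists were called by limma with all libraries in the fit, against 0 to 5 of a list in a given direction at an unadjusted p under 0.05.

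Marker transcripts of cells that carry the pathway also differed between these libraries. The summed TPM of 17 macrophage genes was 38.3, 2010, 186, 17.2 and 1792 in the parotids of baboons 1 to 5, between 44.7 and 607 in the submandibular glands, between 57.0 and 292 in the sublingual glands, between 39.1 and 83.4 in pancreas and between 433 and 861 in liver. None of the 17 was at 0 in every library of a tissue. The 3 gland libraries with the most IFI30 were the 3 with the highest sums, the parotids of baboons 2 and 5 and the submandibular gland of baboon 2. These libraries also have the 3 largest TMM factors (2.47, 2.63 and 2.63), and on the TMM scale IFI30 of that submandibular gland was 14.2, below the sublingual glands of baboons 3 and 5 (17.3 and 19.0). In the parotids of baboons 1 and 4, which had the lowest sums of that gland, CD74 was 490.1 and 256 TPM. The cells behind these CD74 values were not tested. The ratio of CD74 to the macrophage sum was 12.8, 0.484, 3.43, 14.9 and 1.66 in the parotids, 1.73 to 7.75 in the submandibular glands, 0.797 to 6.81 in the sublingual glands, 0.992 to 1.48 in pancreas and 0.108 to 0.257 in liver. CD14 alone made up 51.6% to 79.2% of the liver sums, against at most 15.2% in the other libraries. Without CD14, a sum computed after these values were seen, the ratio was 0.521 to 0.569 in liver and 1.05 to 1.60 in pancreas, and the parotid of baboon 2 was the lowest library at 0.498. CD14 fell in glands against liver by 5.82 (limma adjusted p = 1.02e-09), but the list did not move with it: its median was 0.08, 9 of 17 genes were above 0 and 2 were called lower, CD14 included. Of all genes, 13.2% were called lower in that comparison.

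**Figure D5:**
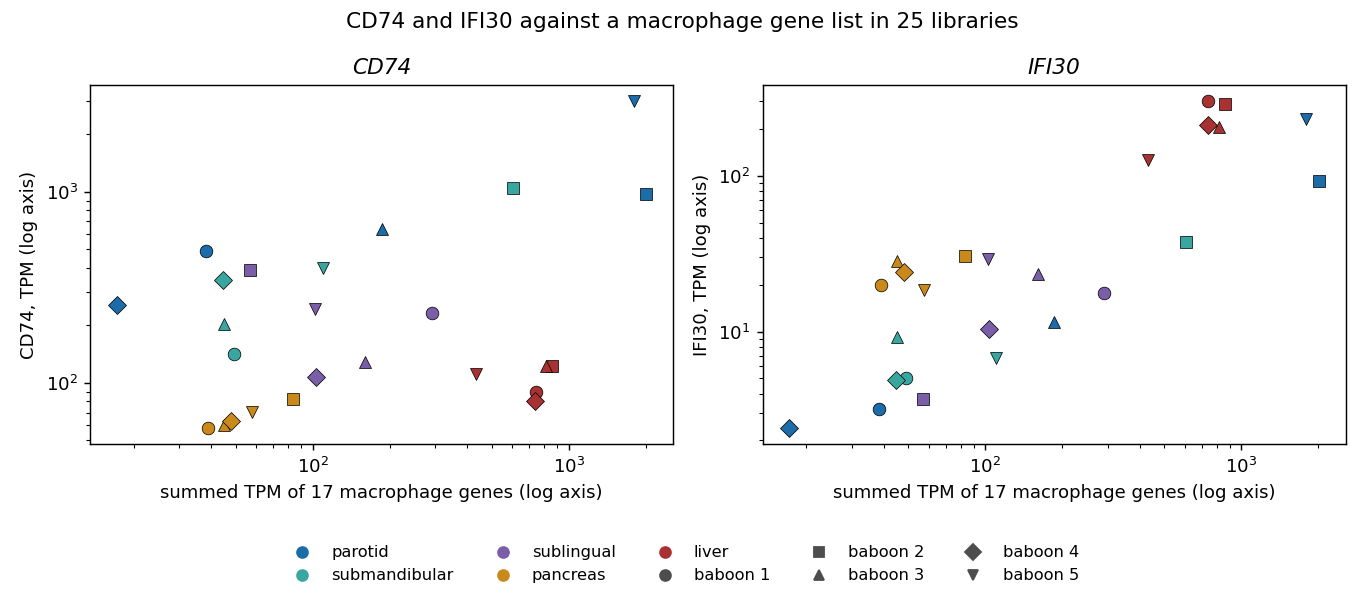
CD74 (left) and IFI30 (right) in TPM against the summed TPM of 17 macrophage genes, both on log10 axes, with 1 point per library coloured by tissue. The 3 gland libraries highest in IFI30 have the 3 highest gland sums. The parotids of baboons 1 and 4 have CD74 of 490.1 and 256 TPM at sums of 38.3 and 17.2 TPM.

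Other antigen-presenting cells varied too. Dendritic cell genes, 11 in the table, summed to 2.11 to 357 TPM in parotid, 4.74 to 59.5 in the submandibular gland, 3.56 to 33.3 in the sublingual gland, 1.32 to 2.98 in pancreas and 8.05 to 19.2 in liver. B cell genes summed to 1.18 to 1102 TPM in parotid, 4.73 to 55.9 in the submandibular gland, 3.38 to 78.1 in the sublingual gland, 0.321 to 5.34 in pancreas and 8.81 to 15.2 in liver. The highest values of CIITA, CTSS and CD74 and the highest B cell sum were in the same library, the parotid of baboon 5. That library also had the highest dendritic cell (357 TPM), T cell (796 TPM) and Kupffer cell (liver macrophage, 574 TPM) sums of the series. Its sums of interferon gamma response (662 TPM) and class I processing genes (19267 TPM) were the highest as well. Its macrophage sum (1792 TPM) was below that of the parotid of baboon 2 (2010 TPM). Endothelial genes summed to 484 TPM in the parotid of baboon 2, 390 TPM in the submandibular gland of baboon 2 and 303 TPM in the parotid of baboon 5, and to at most 75.2 TPM in every sublingual, pancreas and liver library. The part of these cells in the levels of the 5 genes was not tested.

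How the genes varied together was described by correlations of log2(TPM + 1) over the 25 libraries, which share scaling within a library and tissue within an animal. CD74 and CIITA had r = 0.86, and CD74 and IFI30 r = −0.08. After subtraction of each tissue's mean, CD74 and IFI30 had r = 0.66 and CTSS and IFI30 r = 0.92. On the TMM scale these fell to −0.16 and 0.77, and CD74 with CIITA, at 0.79 after subtraction, to 0.47. The pair of CTSS and IFI30 thus stayed close on both scales, and the pair of CD74 and IFI30 did not.

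The genes most like each member were taken as the 3 with the highest correlation over the 25 libraries among 12887 named genes. For CD74 these were HAPLN3 (r = 0.91), SDC3 and SSPN, and for CIITA HAPLN3 (0.93), PTGDR and MPEG1. For CTSS they were EVI2A (0.96), EVI2B and CYTH4, for IFI30 TMEM243 (0.95), CTSH (0.95) and N4BP2L1, and for LGMN ALDH9A1 (0.95), ARMT1 and CTSB (0.94). With tissue means subtracted, RFX5, which binds class II promoters, was among the 3 closest to CD74 (0.90, after PDE7A and CDKN2D), and TAP1, the peptide transporter of class I, was the closest to CIITA (0.92). On the TMM scale with tissue means subtracted only PDE7A remained among the 3 closest to CD74 (0.84). On that scale TAP1 was not among the 3 closest to CIITA, which were GNLY (0.78), SEC61A2 and AGAP2.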

How the data were processed

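Messenger RNA was sequenced from 5 tissues of each of 5 baboons, giving 25 libraries. The authors deposited a table of TPM values per gene, and the labels name kallisto among the tools, per the submitters' processing notes. Its version, index and genome build are not given in the sources used here. TPM keeps no depth, so the precision rests on the spread between animals. Libraries were grouped by the tissue in their labels.

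The 5 genes and all gene lists were chosen with earlier results of these data known. Named genes are the 5 members, the 2 class II chains matched through RefSeq synonyms (assembly Panubis1.0), up to 4 called genes of each pathway list with the largest change, the 3 genes most correlated with each member, and marker genes whose level stands beside a result.

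Values were tested as log2(TPM + 1) with limma 3.58.1 (lmFit, contrasts.fit, eBayes with trend) in R 4.3.3, over the 14991 genes whose mean reached 1 TPM or more in some tissue, with tissue and animal as terms. Benjamini-Hochberg adjustment was over all 14991 genes. No p is given for CD74 against liver, whose gland and pancreas values chose it, nor for CIITA in comparisons that involve the parotid, which alone brought it past the filter. The p values of CD74 between glands are printed, but its gland values took part in the choice, so nothing is read from them. The fit was tested on simulated data. Other values were computed in Python 3.11.15 with pandas 2.3.3 and numpy 2.4.6, and TMM and median-of-ratios factors were computed from TPM.

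Tissues of the same number come from the same animal, per the labels. Their deviations from the tissue means correlated at 0.161 on average, against −0.035 for tissues of different animals. Alternatives were no animal term, both rescalings, 0.1 TPM added, no filter or a mean of at least 5 TPM, only the tissues compared, each animal left out, and 4 doubted gland libraries left out. Leaving out the 3 parotid and submandibular libraries lowest in salivary genes, leaving CD14 out of the macrophage sum and looking for outlying values on the TMM scale were chosen after seeing the data. No sequences are printed, since none were used here.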

Additional observations from a re-analysis of the deposited data

Results flagged for a closer look

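In groups of 5 libraries, a value was picked out when its gap to the nearest other value exceeded 0.71 of the group's range (Dixon's test). Of 25 groups (5 genes in 5 tissues), 5 held such a value, where chance picks out about 5% of groups if values are normally distributed. The gaps were taken on TPM, which is skewed in some groups, so that rate need not hold and no excess is read from the count. The groups share libraries, so they are not independent.

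Both libraries involved were named above for their marker genes. In the parotid of baboon 5, CD74 was 2978.5 TPM (gap 0.737 of the range) and CIITA 15.9 TPM (0.734). In the submandibular gland of baboon 2, CD74 was 1051.0 TPM (0.717), CTSS 5.73 TPM (0.731) and IFI30 37.2 TPM (0.869). The parotid of baboon 5 also had the highest B cell (1102 TPM), T cell (796 TPM) and dendritic cell (357 TPM) sums of the series. The submandibular gland of baboon 2 had the highest macrophage sum of its gland (607 TPM) and the lowest salivary sum (2262 TPM). Its B cell (55.9 TPM), T cell (75.2 TPM) and dendritic cell (59.5 TPM) sums were the highest of that gland too. The part of these cells in the 5 values was not tested. Baboon 5 is the only male. On the TMM scale, a check added after seeing the data, none of these 5 values stood out by the same measure. Other values did, in 4 groups: CD74 in the submandibular gland of baboon 4 (782) and the sublingual gland of baboon 2 (469), CTSS in the submandibular gland of baboon 4 (3.84) and CIITA in the liver of baboon 5 (0.464).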

How the results depend on the processing

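Across all 14 alternatives, glands against liver kept their calls for IFI30 (−4.74 to −3.55) and LOC101018895 (1.60 to 2.23), and pancreas against liver for IFI30 (−3.23 to −2.42). The untested CD74 difference between glands and liver ran from 1.54 to 2.03. The fit with no replicate block called 2440 genes instead of 2727 between glands and liver. Dropping the animal pairing changed no call of the 5 genes or the chains and no count of all genes called by over 1.5 times.

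Counts of all genes called moved as follows. Between pancreas and liver (2623), 4308 were called with only the tissues compared, and 1731 to 2666 with an animal left out. Between glands and pancreas (966), 1479 were called with TMM, 1481 with median-of-ratios scaling and 1499 with 0.1 TPM added, and 458 to 999 with an animal left out. Between parotid and submandibular gland (0), each rescaling called 1, leaving out the doubted libraries 6, the 3 low-salivary libraries 15, and an animal 0 to 11. Between parotid and sublingual gland (17), each rescaling called 53, the 5 TPM filter 3, only the tissues compared 0, leaving out the doubted libraries 3012, the low-salivary ones 3160, and an animal 0 to 388 (388 without baboon 2). Between submandibular and sublingual gland (10), TMM called 1, median-of-ratios 0, no filter 2, only the tissues compared 0, leaving out the doubted libraries 1685, the low-salivary ones 3670, and an animal 0 to 2539 (2539 without baboon 2). The share called higher went from 27.5% to 38.3% (TMM) and 39.3% (median-of-ratios) in glands against liver, from 16.3% to 38.8% and 40.8% in pancreas against liver, from 50.9% to 36.5% and 35.4% in glands against pancreas, and from 17.6% to 49.1% and 41.5% in parotid against sublingual gland. The causes were not tested.

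Among the 5 genes, glands against liver gave CIITA 1.48 with 0.1 TPM added, CTSS −0.11 without the low-salivary libraries, and LGMN −1.09 with TMM, −1.07 with median-of-ratios, −1.71 without the doubted and −1.75 without the low-salivary libraries (an animal left out: −1.92 to −1.02). Pancreas against liver gave CD74 0.0321 and 0.0712, CIITA 0.0395 and 0.0492, LOC101018895 0.49 and 0.53 and LOC101000981 0.0307 and 0.0638 with the rescalings in that order. With an animal left out, it gave LGMN −2.47 to −2.06 and LOC101018895 −0.25 to 0.0142. Parotid against sublingual gland gave CD74 2.23 and 2.17 and CIITA (TMM) 1.16 with rescaling. Without the doubted and the low-salivary libraries it gave CD74 1.48 and 1.37, CTSS −0.86 and −0.74, IFI30 −1.83 and −1.49, and LGMN −0.82 and −0.66. With an animal left out, CD74 ran from 1.49 to 2.12 and IFI30 from −0.48 to 1.14. Parotid against submandibular gland gave IFI30 −0.67 and −0.39 without those libraries. Submandibular against sublingual gland gave IFI30 0.0281 with TMM, and CIITA −0.0311 without the low-salivary libraries and −0.0573 to 0.22 with an animal left out. Depth is unknown, so low CIITA and CTSS values carry a counting error that cannot be given.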

Other observations

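LOC101000981, the gene with the synonym Paan-DPB1, had its lowest and highest values in the same animals in most tissues. Baboon 3 had the lowest value in 5 of 5 tissues, between 0.466 and 4.01 TPM, and baboon 5 the highest in 4 of 5, between 12.6 and 924 TPM. The ratio of LOC101000981 to LOC101018895, the gene with the synonym Paan-DPA1, was 0.00609 to 0.138 in baboon 3, 0.116 to 0.512 in baboon 2, 0.429 to 0.857 in baboon 4, 1.10 to 1.93 in baboon 1 and 1.60 to 3.03 in baboon 5. The ranges of baboons 3, 4 and 1 did not overlap. These values were seen after the data were examined, and no test was run on them.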
